A study of Mus musculus with 8 samples.

Results

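A set of 10 genes of glucose entry and glycolysis was followed in cardiac Purkinje cells and ventricular working myocytes. They encode the glucose transporters Slc2a1 and Slc2a4, the hexokinases Hk1 and Hk2, the muscle-type enzymes Pfkm, Aldoa, Pgam2 and Eno3, and the lactate dehydrogenase subunits Ldha and Ldhb. Their members are the 21 probe sets of a mouse expression array that name 1 of these 10 genes and no other gene, of 34945 such probe sets naming 18193 genes. A probe set that names Hk1 together with ribosomal protein genes was left out. All 21 passed the limit on low signals and were tested among 27022 probe sets.

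The series holds 8 arrays, 4 of Purkinje cells and 4 of ventricular myocytes, and the series design gives 4 separate hearts as the source of both cell types. All 8 samples came from adult male mice that carried Cntn2-EGFP together with a-MHC-Cre and floxed-tdTomato, on a background mixed from CD1, C57/B6 and 129S1. In these mice EGFP reports the neural adhesion gene Cntn2, which marks Purkinje cells, and Cre under the a-MHC promoter, active in cardiac myocytes, switches on tdTomato, so the mice behind both groups carry both reporters. Hearts were perfused and digested with enzymes, and the 2 cell types were sorted by FACS before RNA was extracted and amplified. The values are MAS5 signals on a linear scale, and the number of arrays limits their precision.

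Glucose enters heart muscle cells through facilitative transporters and is then held inside the cell by hexokinase, which phosphorylates it. Glycolysis carries the sugar phosphate through phosphofructokinase, aldolase, phosphoglycerate mutase and enolase to pyruvate, which lactate dehydrogenase exchanges with lactate. Most of these steps have several isoforms, of which 1 is typical of striated muscle, and the adult working heart is known for oxidising mainly fatty acids with glucose and lactate as further fuels.

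All 9 Purkinje markers, a list taken up with earlier results of these data known, were higher on the Purkinje arrays, with summed signals of 2270 to 8916 against 451 to 670. The list includes Cntn2, the gene that the EGFP of these mice reports, so its call is no independent check of the sorted cells. Cntn2 (ventricular signals of 2.9 to 24.0) and Cacna1g (5.1 to 15.7) passed the limit on low signals (19.9) only through their Purkinje arrays. Purkinje replicate 1 had the lowest sum of the Purkinje arrays. None of the 8 cardiac myocyte markers passed the test in either direction (limma, also 0 at an unadjusted p under 0.05, while 16.5% of all genes passed after adjustment), and their summed signals were 72368 to 76873 on the Purkinje and 70176 to 88650 on the ventricular arrays. All 8 were called lower with hearts 3 and 4 only (median log2 difference -0.25) and after median centring (-0.51), and none with hearts 1 and 2 only (0.04).

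Slc2a4, Hk2, Pfkm and Eno3 were lower in Purkinje cells, by 20.6% to 32.1%, and the hexokinases moved in opposite directions. With same-numbered arrays paired as arrays of 1 heart, 5 probe sets passed an adjusted p of 0.05 as lower and 1 as higher. The lower ones are both probe sets of Slc2a4 and those of Hk2, Pfkm and Eno3, and the higher one belongs to Hk1. Over all probe sets tested, 14.1% were called, 5.62% as lower and 8.51% as higher. The remaining 15 did not pass, and 14 of them had estimates below 0. The median difference of the 21 was -0.28 on the log2 scale, against 0.11 for all probe sets tested. In 11 of the 21 the Purkinje array was the lower one in 4 of 4 hearts, which held for 14.3% of all probe sets tested, and in 1 it was the higher one in 4 of 4 hearts (22.3% of all). The groups did not overlap in 5 of the 21, all with Purkinje cells lower, and over all probe sets tested this held for 5.04% in that direction and 6.97% in the other. These shares and the median of 0.11 cover probe sets of all signal levels. The median signal of an array was 36.1 to 42.9 in Purkinje cells and 28.2 to 32.3 in ventricular myocytes. The 21 were brighter, with group means of 285 or more. The 8 cardiac myocyte markers, bright as well, had a median difference of -0.10. The part of signal level in these gaps was not tested.

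These calls rest on the pairing of arrays by heart and on few hearts. No label names the heart of an array, so heart 1 to 4 here stands for the replicate number that a Purkinje and a ventricular array share. Without the heart as a block none of the 21 passed (0 higher and 0 lower by limma, against 1.41% and 0.555% of all probe sets, 1.96% together), although 10 were lower at an unadjusted p under 0.05. With heart 2 left out none passed either (1564 of all probe sets did), with 12 lower and 1 higher at an unadjusted p under 0.05. Leaving out heart 3 kept only Hk2 (1413 of all called), and leaving out heart 4 kept Hk2 and the second Slc2a4 probe set (1971 of all). Without heart 1 there were 11 lower and 2 higher (4248 of all).

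**Figure D1:**
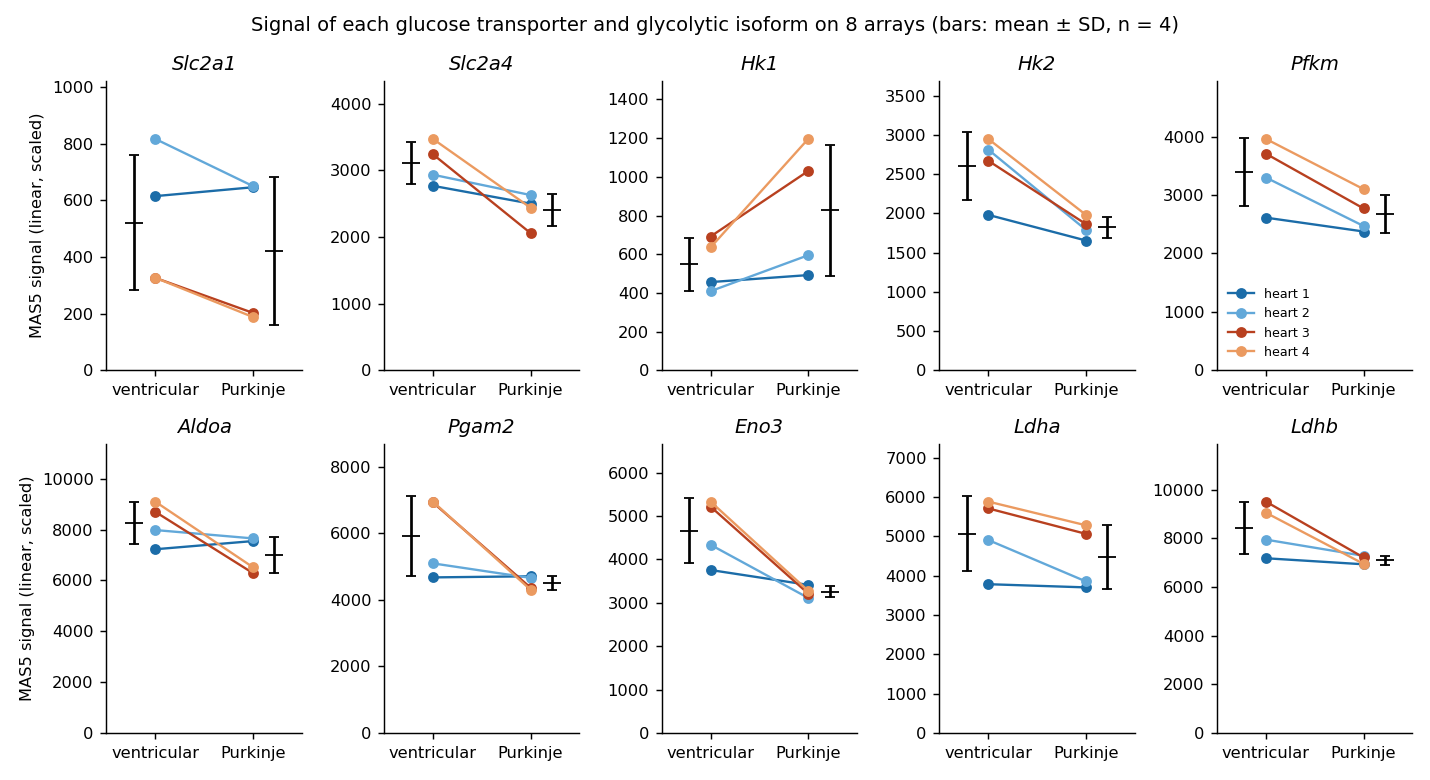
MAS5 signal (linear scale, y axis from 0) of the probe set with the highest mean for each of the 10 genes, with lines joining the 2 arrays of a heart and black bars giving the mean ± SD of 4 arrays. Hk2 and Eno3 fall in each heart, Hk1 rises in each heart, and the Slc2a1 signals lie at 615 to 817 in hearts 1 and 2 and at 188 to 327 in hearts 3 and 4.

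Slc2a4 encodes GLUT4, the transporter that insulin and contraction bring to the surface of muscle cells. Its first probe set gave signals of 2499, 2628, 2056 and 2438 on Purkinje arrays 1 to 4 and of 2767, 2933, 3241 and 3471 on ventricular arrays 1 to 4. The groups did not overlap, and the gap within a heart was wider in hearts 3 and 4 than in hearts 1 and 2. The log2 difference was -0.37 ± 0.11 (SE; limma adjusted p = 0.0370 with the heart block and 0.122 without), a level 22.5% lower in Purkinje cells. A second Slc2a4 probe set gave 976, 804, 1062 and 1492 in Purkinje cells and 1148, 1187, 2205 and 1943 in ventricular myocytes. Here the groups overlapped through Purkinje replicate 4, yet the Purkinje array was lower in every heart. That difference was -0.56 ± 0.13 (adjusted p = 0.0151 with the block and 0.222 without).

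Slc2a1 encodes GLUT1, the transporter of basal glucose uptake that most cell types carry. None of its 3 probe sets passed the test. The first gave 646, 650, 203 and 188 on Purkinje arrays 1 to 4 and 615, 817, 326 and 327 on ventricular arrays 1 to 4. The hearts differed more than the cell types did, since both arrays of hearts 1 and 2 lay above all 4 arrays of hearts 3 and 4. The log2 difference was -0.44 ± 0.16 (adjusted p = 0.0850 with the block, 0.623 without). A probe set of the same kind gave -0.37 ± 0.18 with the same split of hearts, at 425, 404, 180 and 132 in Purkinje cells and 373, 483, 245 and 259 in ventricular myocytes. The third gave -0.48 ± 0.18, with Purkinje signals of 366, 315, 294 and 232 and ventricular signals of 353, 446, 365 and 517, and did not split the ventricular arrays by hearts. In all 3 the Purkinje array was lower in hearts 2, 3 and 4 and slightly higher in heart 1.

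The hexokinases were the isoforms among the 10 genes with opposite calls. Hk2, the hexokinase typical of insulin-responsive muscle, gave 1655, 1791, 1864 and 1981.6 on Purkinje arrays 1 to 4 and 1981.9, 2815, 2673 and 2951 on ventricular arrays 1 to 4. The groups met without overlapping, as the highest Purkinje and the lowest ventricular signal were nearly equal, and every heart was lower in Purkinje cells. Hk2 fell by 0.50 ± 0.10 on the log2 scale (adjusted p = 0.00611 with the block, 0.0821 without), or by 29.4%. The authors' deposited table gives a ratio of means of 0.700 for it, with an unadjusted p of 0.0159.

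Hk1 encodes the widely expressed hexokinase that binds mitochondria and is prominent in brain. Its first probe set gave 492, 595, 1030 and 1196 in Purkinje cells and 456, 409, 691 and 635 in ventricular myocytes. Purkinje arrays were higher in 4 of 4 hearts, while the groups overlapped because hearts 3 and 4 were high in both cell types. The log2 difference was 0.54 ± 0.14 (adjusted p = 0.0232 with the block, 0.310 without), or 44.9% higher. After median centring of the arrays it was 0.13 (adjusted p = 0.606). The second Hk1 probe set did not pass, at 0.28 ± 0.20 (adjusted p = 0.394). It gave 330, 437, 479 and 499 on the Purkinje and 499, 387, 261 and 316 on the ventricular arrays, so heart 1 went the other way.

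Promoter windows of the hexokinase genes are shown because these are the isoforms with opposite calls, and those of Eno3 and Ldha because they are a muscle isoform that fell and a textbook target of hypoxia-inducible factors. RefSeq windows (GRCm38.p6, from 250 bases before to 50 after an annotated start, 5′ to 3′ on the gene's strand) were found for 9 of the 10 genes, with no entry for Slc2a4. Capitals mark ACGTG, the core of hypoxia response elements, read on either strand (CACGT is its other strand), and CAGCTG, an E-box that myogenic factors bind. The Hk1 window is the one of 2 that holds ACGTG, and the Ldha window likewise, both chosen after their letters were seen.
Hk1, chr10:62340372-62340671, minus strand: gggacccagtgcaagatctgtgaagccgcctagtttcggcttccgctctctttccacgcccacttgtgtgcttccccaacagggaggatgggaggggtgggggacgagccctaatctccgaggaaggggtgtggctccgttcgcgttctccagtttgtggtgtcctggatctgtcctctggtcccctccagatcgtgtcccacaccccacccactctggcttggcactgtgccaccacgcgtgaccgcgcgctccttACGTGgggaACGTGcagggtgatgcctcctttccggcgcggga
Hk2, chr6:82774405-82774704, minus strand: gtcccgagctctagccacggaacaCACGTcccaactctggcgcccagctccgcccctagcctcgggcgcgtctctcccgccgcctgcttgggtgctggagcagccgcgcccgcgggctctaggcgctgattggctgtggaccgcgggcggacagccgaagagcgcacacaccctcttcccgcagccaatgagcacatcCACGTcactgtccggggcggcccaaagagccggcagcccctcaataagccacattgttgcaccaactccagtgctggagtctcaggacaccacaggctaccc
Eno3, chr11:70656926-70657225, plus strand: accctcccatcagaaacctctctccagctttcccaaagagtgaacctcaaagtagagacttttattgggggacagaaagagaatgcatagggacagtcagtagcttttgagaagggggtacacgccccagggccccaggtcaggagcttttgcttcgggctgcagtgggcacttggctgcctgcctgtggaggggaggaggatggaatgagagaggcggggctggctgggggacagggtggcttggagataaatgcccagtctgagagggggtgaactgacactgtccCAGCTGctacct
Ldha, chr7:46845554-46845853, plus strand: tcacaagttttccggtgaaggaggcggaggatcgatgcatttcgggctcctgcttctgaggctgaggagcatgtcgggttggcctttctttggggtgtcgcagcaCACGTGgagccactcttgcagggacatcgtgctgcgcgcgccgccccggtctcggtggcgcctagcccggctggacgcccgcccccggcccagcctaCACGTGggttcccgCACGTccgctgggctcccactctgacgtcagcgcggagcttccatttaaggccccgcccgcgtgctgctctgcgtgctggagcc
The Hk1 and Hk2 windows shown each hold ACGTG at 2 places, and the other Hk1 window holds none. ACGTG was found on either strand in 8 of 16 windows, from 6 of the 9 genes (Slc2a1, Hk1, Hk2, Pfkm, Aldoa and Ldha), and in 19.6% of all 32851 windows. Some windows of Aldoa and of Pfkm overlap each other. The 19.6% is a share of windows, no share over all genes was taken, and a gene with several windows has more chances of a match. The palindromic form CACGTG, which counts as ACGTG on both strands, was in 2 member windows (Ldha and Pfkm) and in 7.15% of all windows. CAGCTG was in 3 windows (Aldoa, Pgam2 and Eno3) and in 16.3% of all windows. The letters CTA and TAG with any 4 bases between them were in 1 window, that of Ldhb, and in 3.69% of all windows. A match describes letters in a window and shows no binding.

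Ratios of isoforms were compared within each array, which a common scaling of the array leaves unchanged. The log2 ratio of Hk1 to Hk2 was higher in Purkinje cells by 0.37, 1.19, 1.10 and 1.49 in hearts 1 to 4, with a mean of 1.04 ± 0.47 (SD, n = 4 hearts). In an exact two-sided permutation test over the 8 arrays, which did not use the pairing by heart, this gave p = 0.0286. That is the smallest p this unpaired test allows, and the adjusted p over the 3 ratios was 0.0857. The other Hk1 probe set against Hk2 gave a shift of 0.78. An exact sign-flip test over the hearts, with the replicate number as the block, cannot reach 0.05 with 4 hearts.

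Neither of the other ratios moved in the same direction in every heart. The ratio of Slc2a1 to Slc2a4 shifted by 0.22, -0.17, -0.03 and -0.29 in hearts 1 to 4 (mean -0.07 ± 0.22, exact permutation p = 0.80), and 3 of the 6 pairings of their probe sets gave a positive shift. The ratio of Ldha to Ldhb shifted by 0.02, -0.22, 0.23 and 0.23 (mean 0.06 ± 0.21, exact permutation p = 0.60).

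**Figure D2:**
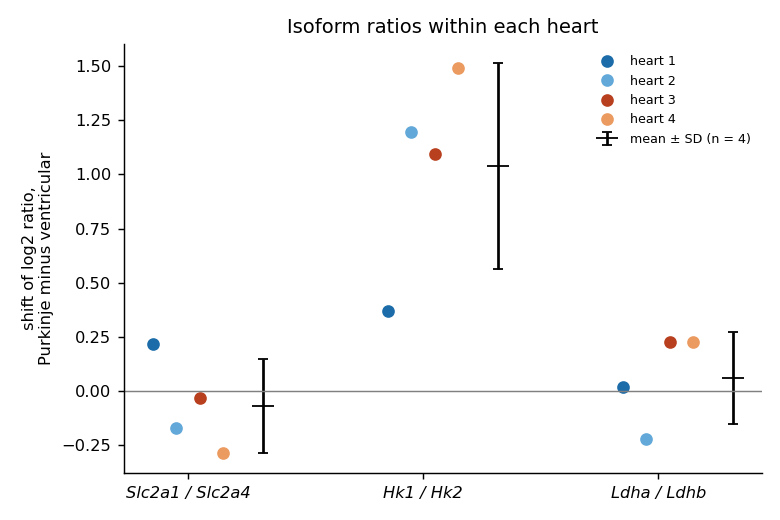
Shift of the log2 ratio of 2 isoforms between Purkinje and ventricular arrays (y axis) for 3 isoform pairs, with a point per heart and the mean ± SD of 4 hearts. The ratio of Hk1 to Hk2 lies above 0 in 4 of 4 hearts, from 0.37 to 1.49, while the other ratios lie on both sides of 0.

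Pfkm encodes the muscle subunit of phosphofructokinase, the committed step of glycolysis. It gave 2376, 2470, 2770 and 3101 on Purkinje arrays 1 to 4 and 2613, 3300, 3709 and 3962 on ventricular arrays 1 to 4. The cell types overlapped across hearts, and the Purkinje array was the lower one in 4 of 4 hearts. Pfkm fell by 0.33 ± 0.09 on the log2 scale (adjusted p = 0.0287 with the block, 0.221 without), or by 20.6%.

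Eno3, the muscle enolase, was also called lower. Its signals were 3412, 3112, 3212 and 3275 in Purkinje cells and 3756, 4338, 5219 and 5334 in ventricular myocytes. The Purkinje arrays lay close together and all below the ventricular ones, which covered a wider range. The difference was -0.51 ± 0.10 (adjusted p = 0.00819 with the block, 0.0603 without), or 29.6% lower. The authors' deposited table gives unadjusted p-values of 0.0396 for Eno3 and 0.0212 for Pfkm, and with Hk2 these are the 3 of 21 probe sets at or under 0.05 in that table, where 19.7% of all probe sets tested are.

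Pgam2, the muscle phosphoglycerate mutase, gave 4705, 4656, 4362 and 4300 in Purkinje cells and 4671, 5093, 6924 and 6949 in ventricular myocytes. The cell types were nearly equal in heart 1 and far apart in hearts 3 and 4. It did not pass (-0.37 ± 0.12, adjusted p = 0.0573 with the block, 0.160 without).

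Aldoa, the aldolase of muscle and many other tissues, was read by 5 probe sets, none of which passed. All 5 carry the array maker's suffix for probes that may also bind other transcripts, so closely related sequences could add to their signals. The first gave 7545, 7650, 6286 and 6516 in Purkinje cells and 7223, 7979, 8699 and 9099 in ventricular myocytes. Its difference was -0.24 ± 0.10 (adjusted p = 0.140), and the 5 estimates ranged from -0.18 to -0.35. Only 1 of the 5, at -0.28 (adjusted p = 0.0617), had no overlap between groups.

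Ldha and Ldhb encode the muscle-type and heart-type subunits of lactate dehydrogenase. Ldha gave 3701, 3853, 5063 and 5281 in Purkinje cells and 3783, 4907, 5711 and 5884 in ventricular myocytes. It was lower in Purkinje cells in every heart, by less than the spread between hearts, and did not pass (-0.18 ± 0.09, adjusted p = 0.185). The first of 4 Ldhb probe sets gave 6930, 7277, 7210 and 6948 against 7178, 7944, 9508 and 9052. Its difference was -0.24 ± 0.09 (adjusted p = 0.0840), and the other 3 gave -0.11, -0.18 and -0.21 with adjusted p of 0.408, 0.175 and 0.117. The first probe set, which also enters the ratio of Ldha to Ldhb, and the one at -0.18 carry the same suffix as those of Aldoa. Related sequences could add to their signals too.

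**Figure D3:**
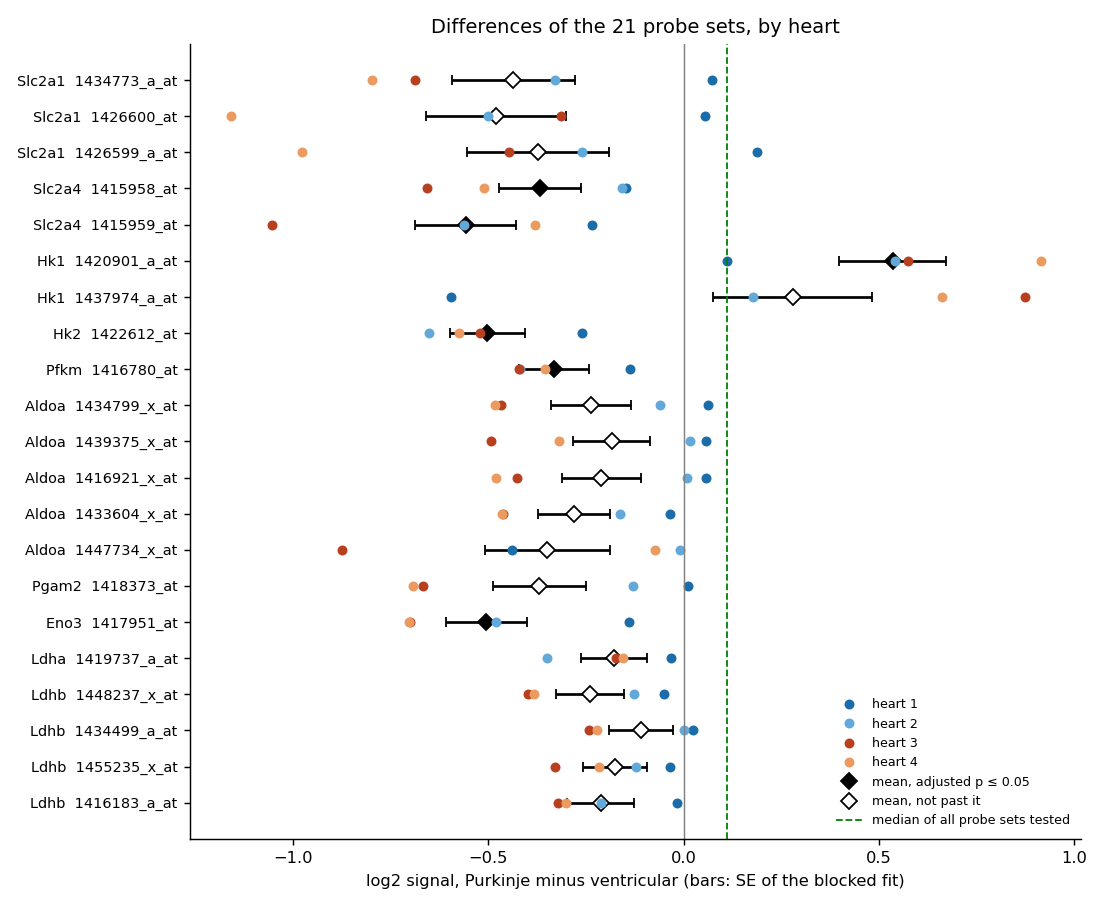
Log2 signal in Purkinje minus ventricular arrays (x axis) for each of the 21 probe sets, with a coloured point per heart and a diamond with SE bars for the blocked fit, filled where the adjusted p is at most 0.05. All but the Hk1 probe sets have means below 0, heart 1 lies nearest to 0 or above it in most of them, and the dashed line marks 0.11, the median of all probe sets tested.

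The median log2 difference of the 21 probe sets was -0.03, -0.16, -0.45 and -0.38 in hearts 1 to 4, while that of all probe sets tested was 0.01, 0.14, 0.11 and 0.12. The Purkinje array was the lower one for 12, 16, 19 and 19 of the 21. The summed signals of the 8 cardiac myocyte markers were 74302 on the Purkinje against 70176 on the ventricular array in heart 1, 76873 against 75231 in heart 2, 72368 against 87820 in heart 3 and 75068 against 88650 in heart 4. Purkinje cells were thus the lower side for these markers too in hearts 3 and 4, and slightly the higher side in hearts 1 and 2. On the control probe sets of Gapdh, itself a glycolytic enzyme, the ratio of 3′ to 5′ signal, a sign of RNA integrity, was 1.24, 1.29, 1.64 and 1.72 on Purkinje arrays 1 to 4 and 1.23, 1.20, 1.51 and 1.51 on ventricular arrays 1 to 4. Hearts 3 and 4, with the lower medians, had the higher ratios. The summed signals of the Purkinje markers also varied, at 2270, 5041, 8805 and 8916 on Purkinje arrays 1 to 4. Endothelial marker sums on the same arrays were 6846, 6333, 4254 and 2644. The part of RNA integrity, of myocyte content and of the purity of the sorted cells in the differences was not tested.

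Markers of other cardiac cell types also differed between the groups. All 9 endothelial markers were higher on the Purkinje arrays, with sums of 2644 to 6846 against 1227 to 3884. Of 9 fibroblast markers 6 were higher (sums of 2671 to 4100 against 1384 to 2600), and of 8 tested smooth muscle and pericyte markers 7 were (7570 to 13921 against 4766 to 8232, over 9 genes). The remaining tested one, Abcc9, did not pass (log2 difference -0.06). It held a large part of these last sums, at 2456 to 5316 on the Purkinje and 2945 to 4861 on the ventricular arrays. Of all genes 9.32% were called higher. Without the heart block 0 endothelial, 2 fibroblast and 3 smooth muscle and pericyte markers passed as higher by limma. At an unadjusted p under 0.05 that fit had 9, 6 and 7 of them higher. These cells also express glucose transporters and glycolytic enzymes, and the array signal cannot tell fewer cells of a type from less RNA per cell. Their part in the differences was not tested.

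Markers of other cell types were mostly too dim to be tested. Of 8 leukocyte markers 4 were tested and 1 was higher (sums of 312 to 928 against 305 to 447), and of 6 Schwann cell and neuron markers 2 were tested and 1 was higher (182 to 564 against 86.4 to 161, with a median log2 difference of 1.22 over both tested). Only 1 of 6 erythroid markers, the globin gene Hba-a2, and 2 of 5 adipocyte markers were tested and none passed. Erythroid sums were 1282 to 2858 against 1121 to 2585, and adipocyte sums 72.1 to 154 against 92.5 to 124. No probe set of the lists was at 0 on all arrays, while Cd14, Lep and Th were below the signal needed for testing (19.9) on all 8.

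**Figure D4:**
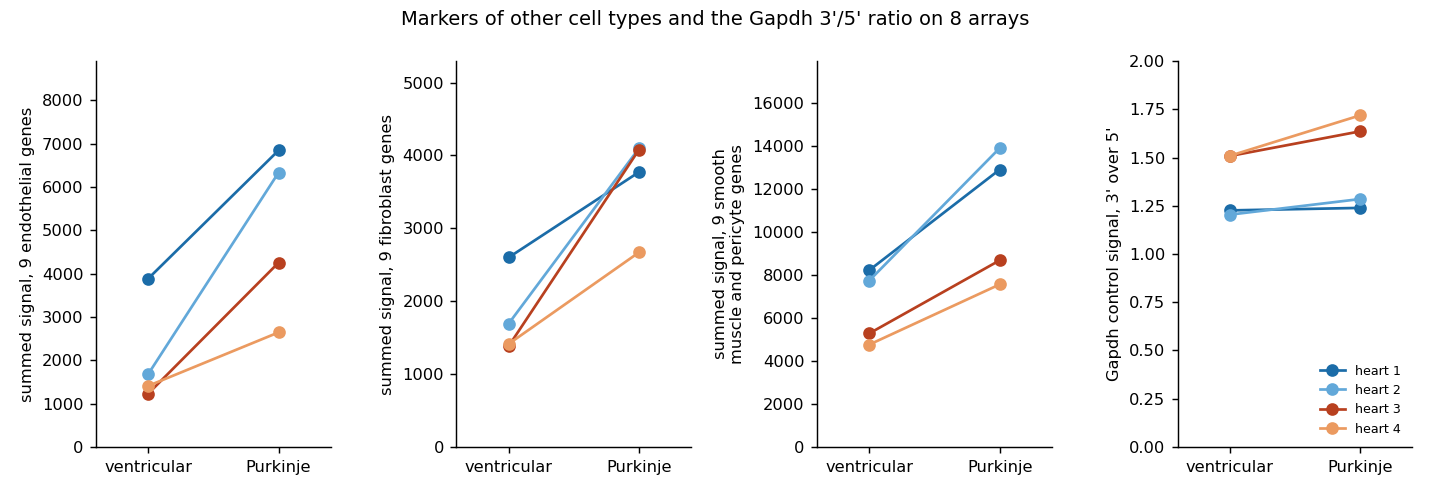
Summed MAS5 signal of 9 endothelial, 9 fibroblast and 9 smooth muscle and pericyte genes, and the Gapdh control ratio (3′ over 5′ signal), on the 8 arrays with lines joining the arrays of a heart. Each of the 3 sums is higher on the Purkinje array of every heart, and the Gapdh ratio is higher in hearts 3 and 4 (1.51 to 1.72) than in hearts 1 and 2 (1.20 to 1.29). Abcc9, which was not called, holds a large part of the smooth muscle and pericyte sums.

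Of 11 other glycolytic enzymes tested, 3 were lower, 1 was higher and 7 did not pass, with a median of -0.25 (36.4% called), while 7.21% of all genes were called lower and 9.32% higher in the same fit. Lower were Pfkl, the liver-type phosphofructokinase subunit (-0.45 ± 0.11, adjusted p = 0.0219), Pkm, the muscle-type pyruvate kinase (-0.32 ± 0.08, adjusted p = 0.0230), and Ldhd, the dehydrogenase of D-lactate (-0.60 ± 0.18, adjusted p = 0.0464). The other 2 Pfkl probe sets gave -0.45 and 0.44, and the other tested Ldhd probe set gave -0.18. None of the 3 lower enzymes passed without the block or without heart 2, 3 or 4.

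Eno2, the enolase of neurons, was the higher one. It gave 71.7, 66.9, 66.7 and 52.2 in Purkinje cells and 17.6, 2.60, 7.60 and 9.50 in ventricular myocytes, with no overlap. The ventricular signals all lay under 19.9, so the size of the difference is uncertain. The fitted log2 difference was 3.08 ± 0.51 (adjusted p = 0.00282 with the block, 0.0209 without), and with 16 added before log2 it was 3.23-fold (adjusted p = 0.000553). Eno2 passed the limit on low signals only through its Purkinje arrays, with no filter its adjusted p was 0.00583, and with the filter at the 60th percentile it was not tested.

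Of 18 regulators of glycolysis tested, 8 were lower, none was higher and 10 did not pass, with a median of -0.43. That is 44.4% called, against 16.5% of all genes called and 7.21% called lower. The largest decrease was in Egln3, a prolyl hydroxylase that marks hypoxia-inducible factors for breakdown, at 787, 431, 437 and 323 in Purkinje cells and 1031, 905, 1205 and 993 in ventricular myocytes. The groups did not overlap, and its difference of -1.14 ± 0.17 passed with the block (adjusted p = 0.00192) and without it (adjusted p = 0.0365). It was followed by Mef2c, a muscle transcription factor (-0.87 ± 0.22, adjusted p = 0.0206), Mlxipl, which encodes the glucose-sensing factor ChREBP (-0.81 ± 0.20, adjusted p = 0.0217), and Pfkfb2, the heart isoform of the enzyme that makes the activator of phosphofructokinase (-0.79 ± 0.12, adjusted p = 0.00230). Each was lower in 4 of 4 hearts. Without the block 1 of the 8 passed, and without heart 3 or 4 there were 3 and 4.

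Of 15 genes of insulin signalling and GLUT4 trafficking, 2 were lower, 1 was higher and 12 did not pass, with a median of -0.12 (20% called, against 16.5% of all genes). Insr, the insulin receptor (-0.42 ± 0.12, adjusted p = 0.0381), and Irs1, its docking substrate (-0.56 ± 0.15, adjusted p = 0.0307), were lower in 4 of 4 hearts. Tbc1d1, a Rab GTPase-activating protein that restrains GLUT4 traffic in muscle, was higher at 1.13 ± 0.30 (adjusted p = 0.0282), in 3 of 4 hearts. Its other 2 probe sets gave 2.25 and 2.56. None of the 3 passed without the block or without heart 2, 3 or 4. None of 6 other glucose transporters passed by limma with or without the block, and at an unadjusted p under 0.05 there were 1 and 0. Slc2a8 gave -0.98 ± 0.40 (adjusted p = 0.126), or -0.63 with 16 added before log2. Its Purkinje replicate 3 stood at 8.1, under the limit of 19.9, and the remaining Purkinje arrays at 38.4 to 113. Slc2a9 gave 0.85 ± 0.45 (adjusted p = 0.225), where Purkinje replicate 2 stood at 253 and the remaining Purkinje arrays at 24.2 to 73.7.

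**Figure D5:**
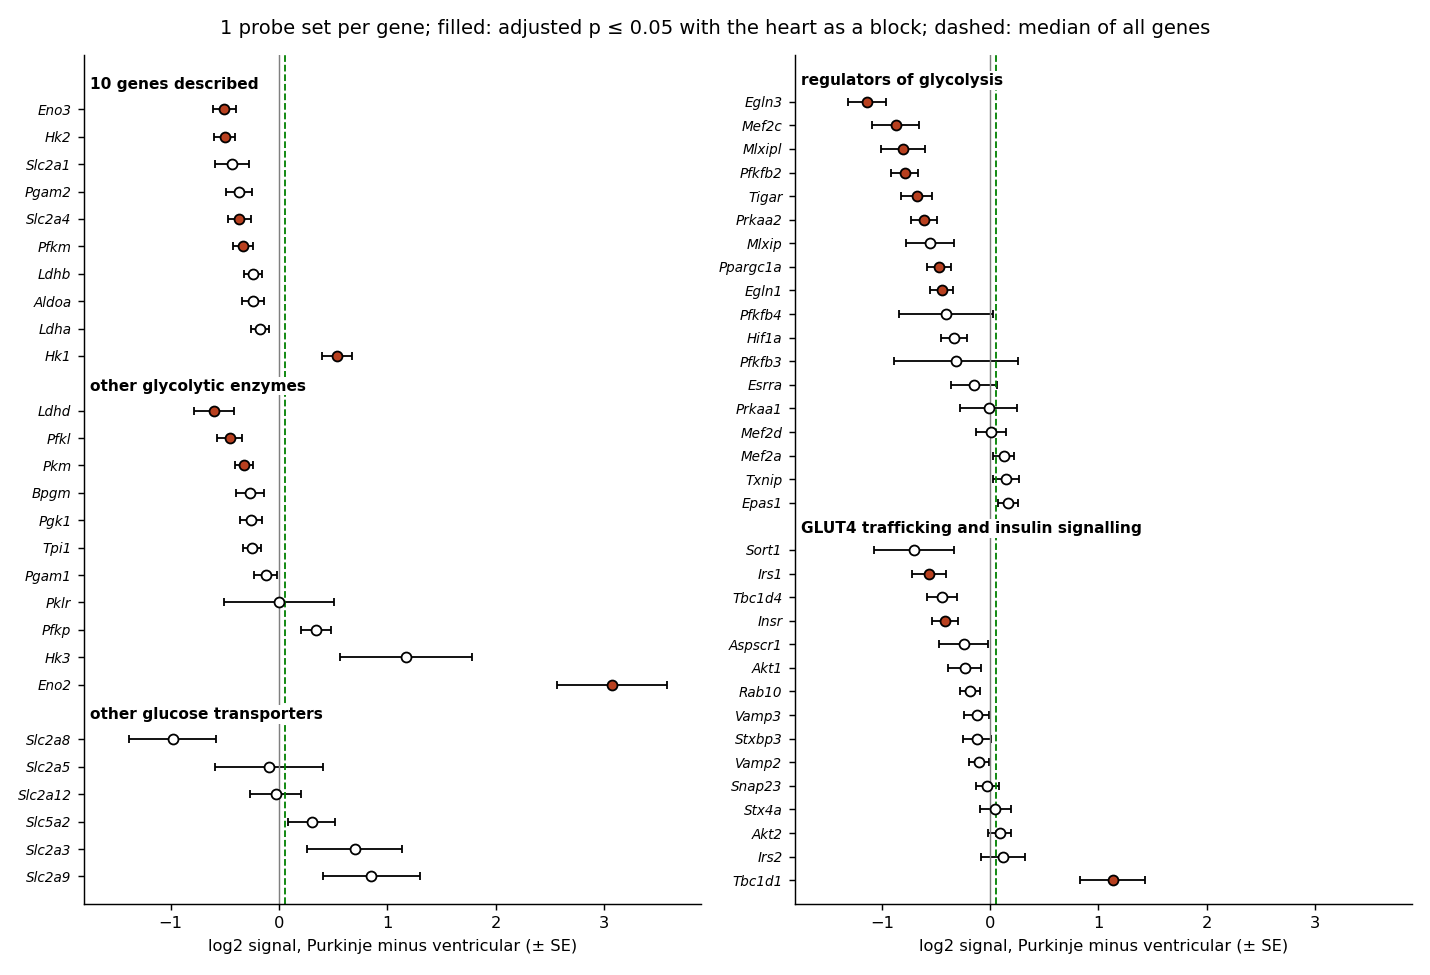
Log2 signal in Purkinje minus ventricular arrays (x axis, ± SE of the blocked fit) for 1 probe set per gene of the 10 genes and of 4 lists of related genes, filled where the adjusted p is at most 0.05. Hk1, Eno2 and Tbc1d1 are the filled points above 0, and the dashed line marks the median of all genes at 0.05.

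For each gene the tested genes with the most similar course over the 8 arrays were found, as the root mean square difference of log2 signals after taking off each probe set's own mean, among 12308 genes. Nearest to Slc2a4 was Cyc1 (0.04), to Hk2 Fech (0.04) and to Pfkm Fsd2 and Idh2 (0.05 each). Nearest to Aldoa was Slc25a3 (0.04), to Eno3 Coq9 (0.05), to Ldhb Ndufv1 (0.03) and to Ldha Psmc1 (0.05). Pgam2 lay nearest to Bag1 and Ankrd1 (0.07 each). Hk1 and Slc2a1, which varied more over the arrays (SD of 0.55 and 0.82, against 0.18 to 0.33 for the other 8), had more distant neighbours, Cbx5 (0.09) and Insig1 (0.16).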

How the data were processed

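Per the labels, PicoPure was used for RNA of the sorted cells and Nugen Ovation Pico WTA for its amplification. MAS5, named without a version in the submitters' processing notes, made the deposited intensity signals. As the values show, the authors' deposited intensity columns share 1 trimmed mean of about 150.0 on every array. The authors also deposited a ratio of the means of both groups and a p-value without adjustment, which for the 21 probe sets matched a paired test of linear signals to within 3.5e-07.

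Gene symbols came from the annotation of the platform. Signals were taken to log2 (values of 0, none in these 21, set to 0.1), and 27022 of 45037 probe sets with a mean above the 40th percentile (log2 4.31, a signal of 19.9) were tested with limma 3.58.1 in R 4.3.3, with a mean-variance trend and the heart as a block, two-sided, Benjamini-Hochberg adjusted. A gene is represented by its probe set with the highest mean. The fit was checked on simulated data.

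Same-numbered arrays were paired because the series design gives 4 hearts as the source of both cell types, and no label states the heart of an array. Deviations from the group means correlated at 0.37, 0.21, 0.26 and 0.24 in same-numbered pairs and at -0.29 to 0.22 in the others, where Purkinje 4 with ventricular 3 (0.22), Purkinje 3 with ventricular 4 (0.21) and Purkinje 2 with ventricular 1 (0.19) came close. The members, lists and named genes were chosen with earlier results of these data known. From each list up to 4 called genes with the largest change are named, or up to 2 where none was called. Isoform ratios were tested by exact permutation in Python 3.11.15. Alternatives were no block, other normalizations, filters, values added before log2, variance models, the authors' paired test, 1 probe set per gene and other sets of hearts; their counts over the other lists were added after seeing the data.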

Additional observations from a re-analysis of the deposited data

Results flagged for a closer look

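Of 48 groups of 4 arrays checked, 2 had 1 array far from the other 3, and chance gives about 1 in 20. Both belong to the same Ldhb probe set, whose difference did not pass the test. On the Purkinje arrays replicate 2 was at 7894 and the others at 6677 to 6764, a gap of 0.923 of the range. On the ventricular arrays replicate 1 was at 6649 and the others at 7787 to 7921, a gap of 0.903 of the range. The other 3 Ldhb probe sets had no such array.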

How the results depend on the processing

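The 5 lower and 1 higher calls depended on several choices. Over all probe sets tested, the same fit called 3818. The member calls became 0 and 0 without the replicate block (530 of all called) and with eBayes without trend (10 of all). They were also 0 and 0 with the authors' paired test after adjustment (0 of all) and with hearts 1 and 2 only (565 of all). They became 2 and 1 after quantile normalization (2521 of all called). After median centring, which moved the median of all probe sets from 0.11 to -0.29, they were 19 and 0 (7936 of all). They became 3 and 1 with no filter (3064 of the 45037 probe sets then tested) and 15 and 2 with hearts 3 and 4 only (3317 of all). Leaving out each heart in turn gave 0 to 11 lower and 0 to 2 higher, with 1413 to 4248 of all probe sets called. With 1 probe set per gene, 16 or 64 added, the filter at the 60th percentile or a robust fit, each called probe set that was in the fit stayed called. Relative to the median of all probe sets, the median of the 21 was lower by either normalization (-0.14 against -0.05 after quantile normalization, -0.68 against -0.29 after median centring). Among the single probe sets, signs turned only in differences that did not pass: the second Hk1 probe set gave -0.12 after median centring and -0.21 with hearts 1 and 2 only, 1 Ldhb probe set 0.0140 after quantile normalization and 0.0127 with hearts 1 and 2 only, and 3 Aldoa probe sets 0.0010, 0.0370 and 0.0331 with hearts 1 and 2 only. The ratio of Slc2a1 to Slc2a4 shifted by 0.0041 with 64 added, by 0.0332 when all probe sets of a gene were averaged and by -0.16 to 0.0051 with a heart left out, and that of Hk1 to Hk2 by 0.89 to 1.26. The cause of these changes was not tested. All 21 probe sets had a mean signal above the limit for testing.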
